A study of Homo sapiens with 3 samples.

Results

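The promoters of 10 genes that control or carry out fatty acid use were examined for long-range contacts in hESC-CMs, the cardiomyocytes that human embryonic stem cells give when differentiated in culture: the nuclear receptors *PPARA*, *PPARD* and *PPARG*, the oestrogen-related receptors *ESRRA*, *ESRRB* and *ESRRG*, the coactivators *PPARGC1A* and *PPARGC1B*, and the carnitine palmitoyltransferases *CPT1A* and *CPT1B*. A promoter fragment was a HindIII fragment that the interaction files list as a bait and that holds an annotated transcript start of one of these genes. Of the 10 genes, 7 had such a fragment, on 8 of the 19075 promoter fragments that the 3 replicates list. No score was used to choose the genes, but they were chosen with earlier results of these data known. The files list a fragment only where it has a called interaction. The 7 genes with a promoter fragment are therefore, by construction, the 7 with an interaction.

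There was 1 group of 3 biological replicates and no control or second condition. All came from the unmodified embryonic stem cell line WA09 (H9), an established line, differentiated with a commercial medium kit, enriched in medium with lactate in place of glucose, and fixed after a purity check by *MYH7* and *TNNT2*, so each culture may still have held some other cells. Promoter capture Hi-C (PCHi-C) ligates DNA ends that lie close together in fixed nuclei and enriches for ligation products that hold a promoter. The files hold a CHiCAGO score for each pair of fragments, which rises with the excess of read pairs over the number that distance and noise alone would give, and they list pairs that score 5 or more. The 3 replicates held 112473, 109731 and 110740 calls. Read numbers were not analysed here, so the depth behind each score is unknown, and a pair that is not listed may still be in contact. Contacts carry no information on expression, so the cell type could not be checked against marker levels.

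PPARs and ERRs are nuclear receptors that bind short DNA elements near the genes of fatty acid uptake and oxidation, the PPARs as partners of RXR. PGC-1α and PGC-1β, the products of *PPARGC1A* and *PPARGC1B*, bind these receptors and raise their activity, and are best known in heart and muscle for driving the growth of mitochondria. CPT1 moves long-chain fatty acids onto carnitine, the gate to mitochondrial oxidation. CPT1A is the liver form and CPT1B the muscle form, and the heart shifts towards fatty acids as it matures.

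The sequences that the results turn on are shown first, in GRCh37 and in lower case. The shortest fragment in contact with a member promoter was a 153-bp HindIII fragment in an intron of *TTC38*, contacted by *PPARA* (chr22:46671578-46671730, plus strand). It is shown whole, with the letters left by the HindIII cuts in capitals.
PPARA partner: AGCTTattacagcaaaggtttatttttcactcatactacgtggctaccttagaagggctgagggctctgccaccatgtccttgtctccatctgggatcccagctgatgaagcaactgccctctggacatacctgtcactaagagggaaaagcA
The next sequence is the middle 300 bases of the fragment that *PPARD* contacted inside its own intron in all 3 replicates, at chr6:35388211-35388510 on the plus strand.
PPARD own intron: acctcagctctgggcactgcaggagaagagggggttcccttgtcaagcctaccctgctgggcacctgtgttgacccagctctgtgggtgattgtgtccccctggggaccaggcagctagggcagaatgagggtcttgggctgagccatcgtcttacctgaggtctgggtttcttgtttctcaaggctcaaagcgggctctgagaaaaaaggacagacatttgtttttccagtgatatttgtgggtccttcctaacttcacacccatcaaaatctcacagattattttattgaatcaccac
The ERR response element TCAAGGTCA and the direct repeat that PPAR and RXR bind (AGGTCA, any base, AGGTCA) were searched on both strands of the 44 fragments in contact with the 8 promoter fragments. They were found 3 times and 1 time, and 100 bases around each match are shown, with the match in capitals and on the strand on which it reads in this form. These lie at chr5:149203465-149203564 (minus strand), chr22:46713779-46713878 (minus), chr4:24404662-24404761 (plus) and chr5:149020151-149020250 (plus).
PPARGC1B partner, ERR element: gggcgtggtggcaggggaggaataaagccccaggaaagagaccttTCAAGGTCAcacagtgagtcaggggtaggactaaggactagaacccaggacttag
PPARA partner, ERR element: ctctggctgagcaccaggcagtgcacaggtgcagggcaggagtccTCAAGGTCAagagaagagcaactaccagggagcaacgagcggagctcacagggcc
PPARGC1A partner, ERR element: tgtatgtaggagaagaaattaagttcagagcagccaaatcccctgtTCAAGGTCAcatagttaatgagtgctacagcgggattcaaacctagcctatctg
PPARGC1B partner, direct repeat: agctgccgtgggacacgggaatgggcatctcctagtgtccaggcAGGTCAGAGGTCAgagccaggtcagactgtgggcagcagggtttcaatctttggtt
None of these windows overlapped an annotated exon. Cut into windows of 300 bases, the contacted fragments held the ERR element in 3 of 497 windows (0.604%) and the direct repeat in 1 (0.201%). Over the 1137605 such windows of all fragments that stand second in a called pair, the shares were 0.451% and 0.0126%. The contacted fragments of the members include some that stand first in their pair, so these sets were not built alike. RefSeq promoter windows, 250 bases before to 50 bases after a start in GRCh38.p14, were found for 9 of the 10 genes, all but *CPT1B*. Their 25 windows held neither element, against 0.353% and 0.0228% of the 35116 RefSeq windows of the same length. A match is a description of letters, and no binding was measured here.

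The 8 promoter fragments took part in 44 interactions when the calls of the 3 replicates were pooled, with 27, 23 and 24 in replicates 1, 2 and 3 (24.7 ± 2.08, SD, n = 3). The replicates were close in number, but they listed partly different pairs. In all 3 replicates 11 were called, 8 in a pair of replicates and 25 in a single one. The 11 made 25.0% of the 44 (95% Wilson interval 14.6 to 39.4, which covers counting error only), and 24.0% of all 200587 interactions were called in all 3. The share of the members was thus close to the background. By gene, 7 of 10 had an interaction in at least 1 replicate, against 77.1% of 20136 protein-coding genes, and 4 of 10 (*PPARD*, *PPARGC1A*, *PPARGC1B* and *CPT1A*) had one in all 3 replicates, against 43.1%. *PPARA*, *PPARG* and *ESRRA* had interactions but none in all 3. All 44 lay within 1 chromosome, and none joined one of the 10 genes to another.

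**Figure D1:**
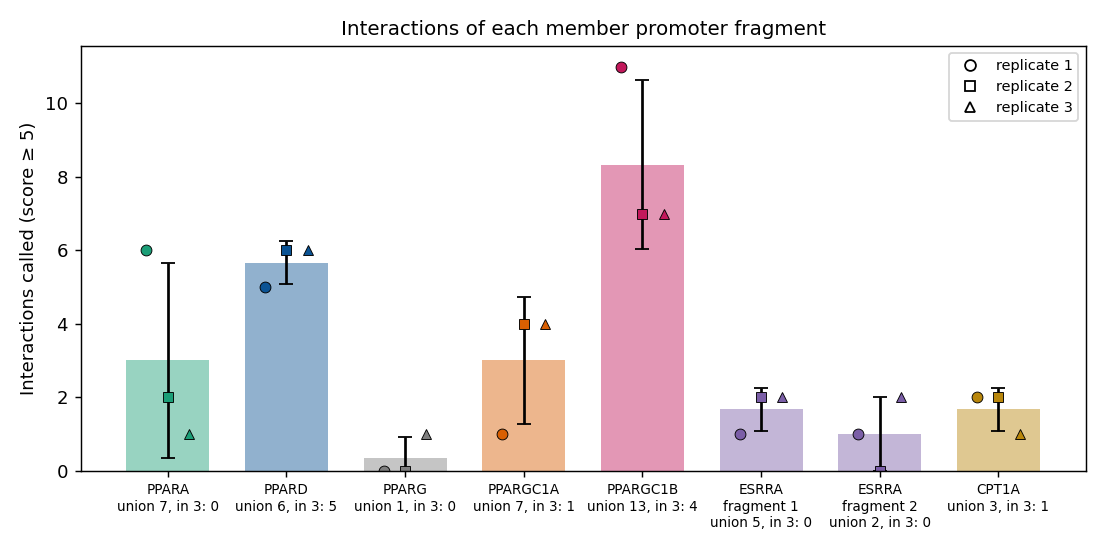
Number of interactions called per replicate (symbols) for the 8 promoter fragments, with bars at the mean and error bars of 1 SD (n = 3). *PPARGC1B* ranges from 7 to 11 calls and *PPARD* from 5 to 6, while *PPARA* ranges from 1 to 6.

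The 11 recurrent interactions spanned 74.9 to 887 kb between fragment midpoints, with a median of 97.7 kb. Over all interactions called in 3 replicates the median was 395 kb. Of the 11, 4 lay in 1 stretch near *PPARD* and 3 in 1 stretch of *PPARGC1B*. The median of the 11 thus rests largely on 2 genes and on fragments that are not independent. The mean scores of the 11 ran from 5.96 to 17.5 with a median of 7.94. The median of all recurrent interactions was 8.32, which 4 of the 11 exceeded. They joined a second promoter fragment in 4 of 11 cases, and 11.1% of all recurrent interactions did so. They ended inside the gene of the promoter itself in 4 of 11 cases, against 8.09% of all. The 4 own-gene contacts come from 2 genes only, 1 in *PPARD* and 3 in *PPARGC1B*, and 3 of the fragments are close neighbours, so they do not count as independent. With 1 condition and 3 replicates no test between groups was run, and scores are said to differ where the 3 values of one pair and the 3 of another did not overlap.

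**Figure D2:**
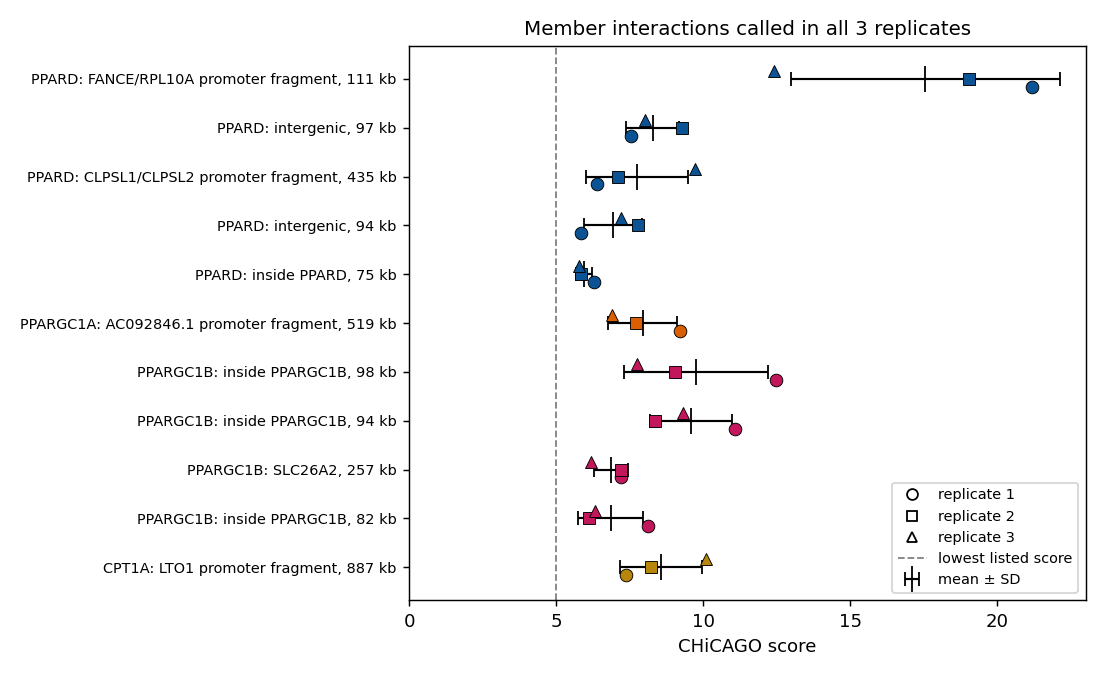
CHiCAGO scores in replicates 1 to 3 (symbols) of the 11 interactions called in all 3 replicates, with the mean and SD (n = 3) in black and the lowest listed score of 5 as a dashed line. The *PPARD* contact with the *FANCE* fragment scores 12.41 to 21.19, above every replicate of the other *PPARD* contacts.

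**Figure D3:**
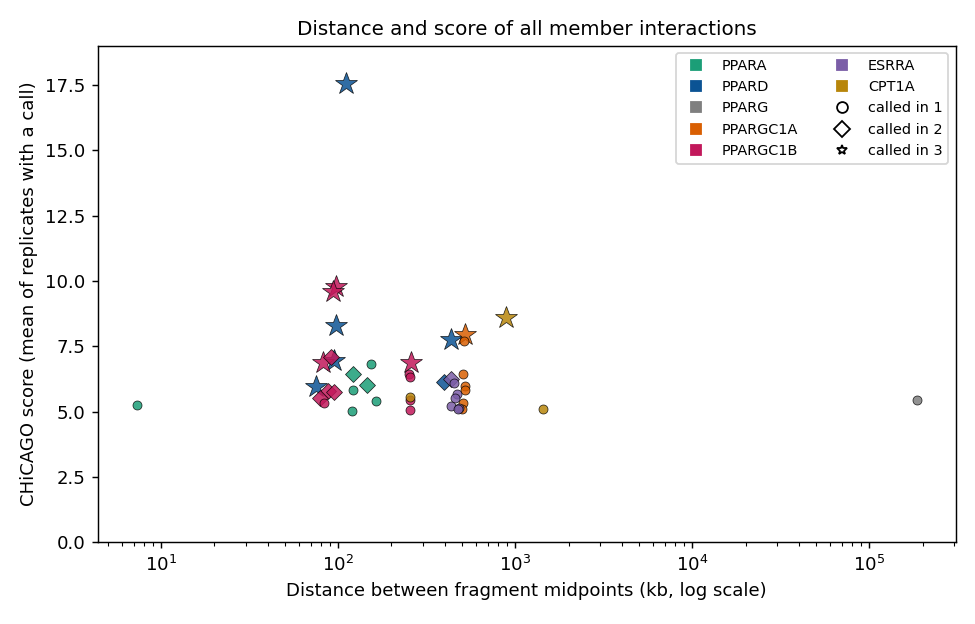
Distance (log scale, kb) and mean score over the replicates with a call for the 44 interactions, coloured by gene, with the symbol giving the number of replicates. The recurrent ones (stars) lie between 74.9 and 887 kb, and the single *PPARG* contact lies far to the right.

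*PPARD*, which encodes the broadly expressed PPARδ, had the most reproducible contacts. All 5 of its transcripts start in chr6:35309629-35317360, a fragment with 5, 6 and 6 calls in the 3 replicates. Of its 6 interactions, 5 were called in all 3. The highest was with the 28103-bp fragment chr6:35410649-35438751, which holds the starts of *FANCE*, a component of the Fanconi anaemia core complex, and of *RPL10A*, a ribosomal protein gene, 111 kb downstream. It scored 21.19, 19.04 and 12.41 (17.5 ± 4.58). Its lowest replicate was above the highest replicate score of any other *PPARD* contact, and 91.7% of all recurrent interactions had a lower mean. The gap was smaller in the calls that the authors made on the merged replicates. There it scored 16.88, and the adjoining 990-bp fragment chr6:35409659-35410648 scored 14.81.

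The 2 HindIII fragments just before it, between *PPARD* and *FANCE*, were contacted as well. The fragment chr6:35409659-35410648 scored 7.55, 9.29 and 8.02 (8.29 ± 0.900), and chr6:35406008-35409658 scored 5.84, 7.77 and 7.21 (6.94 ± 0.993). These ranges overlapped. A 467-bp fragment in a *PPARD* intron, chr6:35388127-35388593, whose middle bases are printed above, scored 6.27, 5.83 and 5.78 (5.96 ± 0.270). It was the lowest of the 11 recurrent means, with 3 closely spaced scores. Together the 4 fragments spread over 50.6 kb, from 74.9 to 111 kb downstream of the promoter. Neither the intron fragment nor the 2 intergenic ones had any other interaction, while the *FANCE* fragment had 2 others, none of them recurrent.

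Farther out, *PPARD* met the promoter fragment of the colipase-like genes *CLPSL1* and *CLPSL2*, chr6:35744167-35752669, 435 kb away, at 6.4, 7.11 and 9.71 (7.74 ± 1.74). That fragment was shared widely. It had 12 other interactions, 5 of them recurrent, and the promoters of *SLC26A8* (14.05, 15.28 and 10.68), *TEAD3* (9.43, 9.35 and 7.2), *BRPF3*, and *CLPS* with *LHFPL5* contacted it in all 3 replicates. The *SLC26A8* scores lay above all of those of *PPARD*, whereas those of *TEAD3* overlapped them. A fragment with an exon of *ARMC12*, 394 kb away, was called for *PPARD* in replicates 2 and 3 at 5.86 and 6.42.

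*PPARA*, the main PPAR of fatty acid oxidation, had calls that varied widely between replicates. The fragment chr22:46545034-46556085, with 7 of its 11 transcript starts, gave 6, 2 and 1 calls. None of the 7 interactions was called in all 3 replicates. The 153-bp *TTC38* fragment, 121 kb downstream, scored 6.87 in replicate 1 and 6.02 in replicate 3. The fragment chr22:46691129-46702728, which holds the start of *GTSE1*, a gene of the cell division cycle, scored 5.76 and 6.3 in replicates 1 and 2, 146 kb away. The other 5 were called once, at 5.04 to 6.81.

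Most of these *PPARA* calls fell close together. Between chr22:46668668 and 46717560 (48.9 kb) lay 6 of the 7 contacted fragments, with 5, 2 and 1 calls, so every replicate called a contact in this stretch although none of its fragments was called 3 times. The fragment with the starts of the microRNA genes *MIRLET7A3*, *MIRLET7B* and *MIR4763* contacted 4 of these fragments too. Its scores at chr22:46712637-46717560 were 14.77, 8.12 and 11.22, where *PPARA* had 5.42 in replicate 1 alone. At the *GTSE1* fragment they were 7.22, 5.51 and 7.15.

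*PPARG*, the PPAR of fat cells, had almost no calls. Its one listed bait, chr3:12328489-12335464, holds 16 of 34 transcript starts and had 1 interaction, in replicate 3, at 5.46 with an intergenic fragment between *DLG1* and *BDH1* at the other end of the chromosome (chr3:197044386-197045386, 184713 kb away). The start fragments with its remaining 18 transcripts were in no call. Fragments outside the gene had 2 interactions with it, each in a single replicate. One of these fragments lay on chromosome 14 and held no annotated start, and the other lay 138165 kb away on the same chromosome as *PPARG*.

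*ESRRA* encodes ERRα, the ERR most closely tied to PGC-1 and mitochondrial genes. Its 8 transcripts start in 2 fragments, and both are crowded. The first, chr11:64052673-64075265, also holds starts of *KCNK4*, *GPR137* and *CATSPERZ*, and the second, chr11:64076978-64089926, those of *PRDX5* and *TRMT112*, so a contact cannot be assigned to *ESRRA* alone. The first fragment had 1, 2 and 2 calls and the second 1, 0 and 2.

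All 7 *ESRRA* contacts pointed to one stretch of 45.0 kb, chr11:64499244-64544269, 435 to 480 kb downstream, that holds parts of *RASGRP2*, *PYGM* (muscle glycogen phosphorylase) and *SF1* (a splicing factor). The calls there numbered 2, 2 and 4 in the replicates, each on a different fragment except one. The second promoter fragment and a *PYGM* fragment (chr11:64517860-64519904) were called in replicates 1 and 3, at 6.12 and 6.35. The other 6 were called once, at 5.09 to 6.09. The calls thus fell in the same stretch in all 3 replicates but recurred on no single fragment. In replicate 2 only the first promoter fragment had calls, at 5.23 and 5.09, near the lowest listed score. That promoter fragment had no interaction in the calls that the authors made on the merged replicates.

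*ESRRB* and *ESRRG* encode ERRβ and ERRγ, of which ERRγ is prominent in the heart. None of the 6 fragments with *ESRRB* starts and none of the 8 with *ESRRG* starts appeared in a call of any replicate, as a bait or as a partner. The replicate files do not tell a fragment that was not captured from one with no call of 5 or more. In the calls that the authors made on the merged replicates, the *ESRRG* start fragment chr1:217305462-217317614 was listed as a bait. That fragment was therefore captured. Inside the *ESRRG* gene, 2 intron fragments were contacted from outside the gene, in 1 replicate each (5.52 and 6.32). The first contact came from a fragment with no annotated start, 526 kb away, and the second from the *CDK5RAP1* promoter on chromosome 20.

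*PPARGC1B* had the most contacts, 13, of which 4 were recurrent. Among the 19075 promoter fragments that the replicates list, each with a call, 71.6% had fewer. The promoter fragment, chr5:149109015-149112871, carries 4 of 7 transcript starts and gave 11, 7 and 7 calls. It also holds the start of *MIR378A*, a microRNA gene within *PPARGC1B*, so the contacts of both starts cannot be told apart. The mature microRNAs of that gene, from RefSeq, are shown with the seed (bases 2 to 8) in capitals.
hsa-miR-378a-5p: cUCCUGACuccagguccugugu
hsa-miR-378a-3p: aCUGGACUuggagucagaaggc
Both are 22 bases long, and their seeds differ.

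The contacts of *PPARGC1B* fell into 3 clusters. The first lay inside the gene, on 6 fragments over 20.9 kb (chr5:149188205-149209129), 79.1 to 97.7 kb downstream, with 6, 5 and 3 calls. The intron fragment chr5:149208143-149209129 scored 12.49, 9.03 and 7.74 (9.75 ± 2.46), and its neighbour chr5:149201881-149208142 scored 11.09, 8.35 and 9.32 (9.59 ± 1.39). These 2 did not differ beyond the replicate spread. The neighbour, which overlaps an exon, carries the ERR element printed above, the one match in a recurrent partner. The third recurrent fragment, chr5:149191947-149194299, scored 8.11, 6.12 and 6.32 (6.85 ± 1.10), below every score of chr5:149201881-149208142.

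The second cluster lay at *SLC26A2*, a sulphate transporter gene, on 5 fragments over 9.65 kb (chr5:149360139-149369792), 251 to 257 kb downstream. One of them, chr5:149366862-149369792, which overlaps a *SLC26A2* exon, was recurrent at 7.2, 7.2 and 6.19 (6.86 ± 0.583), and the other 4 were called once. The last cluster was upstream, on 2 fragments 90.7 and 95 kb before the promoter. They were called in replicates 1 and 3 only, at 9.09 and 5.06 on chr5:149018057-149022451 and at 5.19 and 6.32 on chr5:149013749-149018056. The first of them holds the direct repeat shown above.

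Neighbouring promoters contacted the *PPARGC1B* gene too, mostly on fragments past those that its own promoter contacted. Of its own partners inside the gene, only chr5:149208143-149209129 was shared in the replicates. Other promoters had 16 interactions with fragments in the *PPARGC1B* gene, 14 of them recurrent, and 9 came from the *SLC26A2* promoter and 5 from that of *HMGXB3* and *TIGD6*. The highest was *SLC26A2* with chr5:149232664-149233834, at 13.68, 12.53 and 12.51 (12.9 ± 0.670), near the end of the gene. At chr5:149208143-149209129, the top *PPARGC1B* partner, *SLC26A2* scored 5.05, 5.54 and 5.45, below each of the 3 *PPARGC1B* scores, and *HMGXB3* with *TIGD6* scored 7.38, 5.62 and 7.89, which overlapped them. Both promoters also contacted the upstream pair in all 3 replicates. On chr5:149018057-149022451 *SLC26A2* had 8.02, 6.97 and 8.0 and *HMGXB3* with *TIGD6* had 11.43, 8.2 and 12.96, where the *PPARGC1B* promoter had no call in replicate 2.

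**Figure D4:**
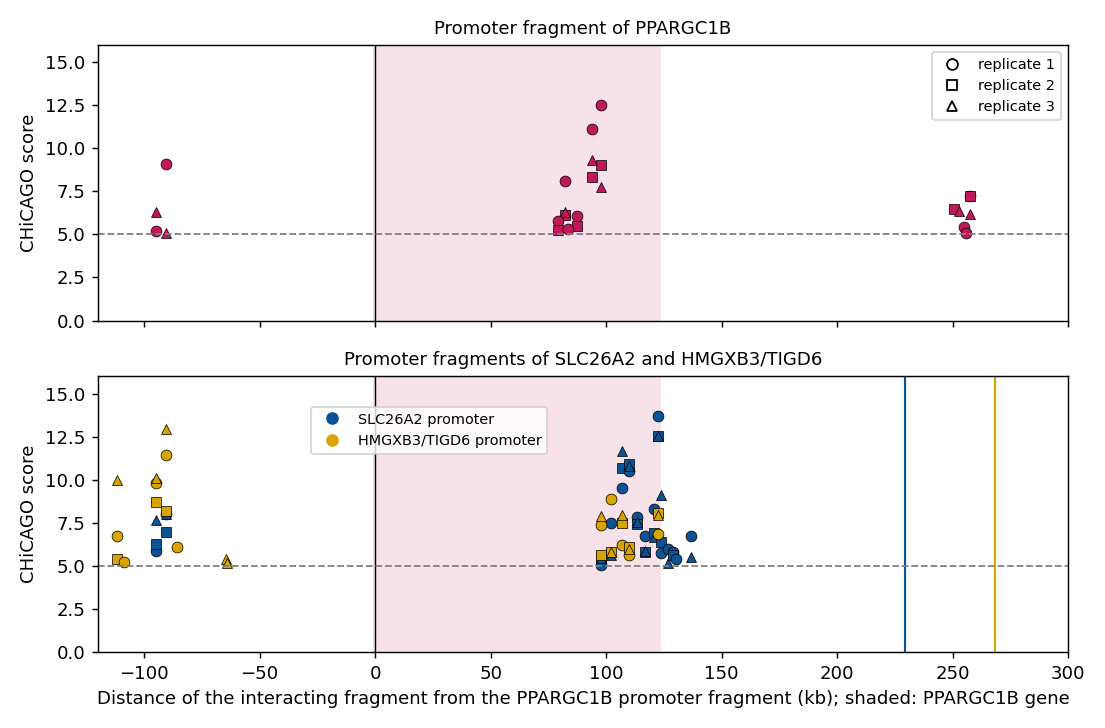
CHiCAGO score in each replicate (symbols) against the distance in kb from the *PPARGC1B* promoter fragment, for that fragment (top) and for the *SLC26A2* and *HMGXB3*/*TIGD6* promoter fragments (bottom, vertical coloured lines), with the *PPARGC1B* gene shaded and a dashed line at the lowest listed score of 5. Both panels hold calls upstream, 90.7 and 95 kb before the promoter, and at the intron fragment 97.7 kb after it.

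*PPARGC1A*, which encodes PGC-1α, was seen only through a minor start. Of its 18 transcripts, 2, neither annotated as protein-coding, start in the listed bait chr4:23898741-23907395. The neighbouring fragment with 7 starts, 4 of them protein-coding (chr4:23891605-23897716), was in no call. With protein-coding starts only, *PPARGC1A* would have no bait and no contact. The bait had 1, 4 and 4 calls, and its 7 contacts all lay in one stretch of 23.9 kb, chr4:24403657-24427540, 501 to 523 kb upstream. One was recurrent, with chr4:24419783-24424102, a fragment that holds the annotated microRNA gene *AC092846.1*, at 9.21, 7.71 and 6.91 (7.94 ± 1.17). The other 6 were called once, at 5.11 to 7.7. The ERR element found here lies on a fragment called in replicate 2 alone.

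That distant fragment is itself a bait, and it contacted *PPARGC1A* beyond the bait just described. Of its 7 interactions with fragments in the gene, 3 were recurrent. At chr4:23891319-23891604 it scored 8.58, 6.83 and 7.43 (7.61 ± 0.889), and at chr4:23889791-23891318 it scored 7.73, 7.46 and 7.45 (7.55 ± 0.159). These 2 adjoining fragments lie directly beside the fragment with the 7 starts. The third, chr4:23778999-23789500, scored 8.34, 6.57 and 6.42. It is itself a promoter fragment, with the start of the lncRNA *ENSG00000249453*, so the contact cannot be assigned to *PPARGC1A* alone. The scores of all 3 overlapped those of the bait at 9.21, 7.71 and 6.91, so contacts between the distant stretch and the gene were listed from both baits. The annotation used here places the distant stretch between *PPARGC1A* and *DHX15*. RefSeq, in GRCh38.p14, gives *PPARGC1A* 2 start windows 592 kb apart, so the gene reaches farther upstream there. That is more than the 501 to 523 kb from the bait to the stretch, which may thus lie inside the RefSeq gene. No coordinate was carried between the builds, and the count of own-gene contacts holds for the annotation used here.

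*CPT1A* had 3 interactions and 2, 2 and 1 calls from chr11:68589544-68614838, with 4 of 9 transcript starts. One was recurrent and the longest of the 11, with the *LTO1* promoter fragment chr11:69486383-69491666, 887 kb away, at 7.38, 8.22 and 10.1 (8.57 ± 1.39). The *LTO1* fragment had 13 other interactions, 10 of them recurrent. Its contact with chr11:68856787-68858830 scored 27.41, 22.58 and 22.81, well above the *CPT1A* scores, and that same fragment was called with *CPT1A* in replicate 2 alone, at 5.56 and 256 kb. The third contact, with an *ANO1* fragment 1431 kb away, was called in replicate 1 at 5.09.

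*CPT1B*, the muscle form, had no call in any replicate. Its 13 transcripts start in 3 fragments, and 9 start in chr22:51014999-51017402, together with exons of *CHKB*. In the calls that the authors made on the merged replicates this fragment appeared as a partner, of the *PLXNB2* promoter at 5.06 and of the *LMF2* and *NCAPH2* promoter at 5.64. As for *ESRRB* and the other *ESRRG* start fragments, the files do not show whether it was captured.

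A wider list of 60 genes of the same pathway, chosen by role, gave the setting. An interaction was listed for 42 of the 60, and a recurrent one for 21 (35.0%). For the members it was 4 of 10, and for all protein-coding genes 43.1%. Several of the pathway genes share promoter fragments with starts of other genes, such as *CRAT* with *PTPA*, *GABPA* with *ATP5PF* and *ACADVL* with *DLG4*. Contacts of shared fragments cannot be assigned to the pathway gene alone. Partners and regulators, such as coactivators, corepressors and kinases, had a recurrent interaction in 11 of 18 cases. *EP300*, a histone acetyltransferase, had 18 and the coactivator *NCOA2* 13, and the lowest were *RXRA*, *RXRB*, *NCOA3* and *MED1*, with no listed bait. The top *EP300* contact scored 11.21, 10.87 and 12.41 and that of *NCOA2*, in its own intron, 11.63, 14.63 and 9.61.

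Mitochondrial biogenesis genes had a recurrent interaction in 1 of 7 cases, *GABPA* with 2, and *TFAM* and *POLRMT* had no listed bait. For fatty acid uptake and activation it was 0 of 9, with *FABP3*, the heart fatty acid-binding protein, at 6 interactions and *PNPLA2*, a triglyceride lipase, at 3, none of them recurrent. *CD36*, *LPL*, *SLC27A1*, *PLIN5* and *ANGPTL4* had none listed. The carnitine shuttle and its control gave 3 of 7, with 6 for *CRAT* and 3 for *ACACB*, whose product makes the malonyl-CoA that blocks CPT1, and no listed bait for *SLC25A20* and *MLYCD*.

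Beta-oxidation genes had a recurrent interaction in 5 of 14 cases. *ACADM*, the medium-chain acyl-CoA dehydrogenase gene, had 3, of which the top one, with a fragment that overlaps an *ACADM* exon and holds the start of its neighbour *RABGGTB*, scored 19.9, 25.18 and 15.72. *ACADVL* and *ETFDH* had 2 each, and *HADHA*, *HADHB* and *ACAA2* had no listed bait. Among the genes of fuel switching and uncoupling, *PDK4*, *PDK2* and *UCP3* had interactions but none that recurred, and *UCP2* had no listed bait.

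**Figure D5:**
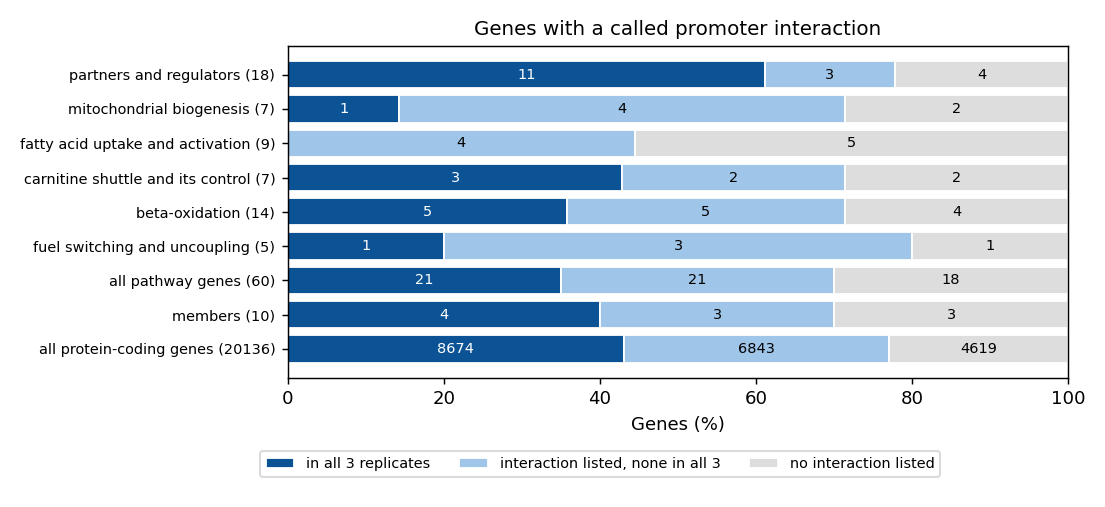
Share of genes (%) with an interaction called in all 3 replicates, with interactions but none in all 3, and with none listed, for each list (number of genes in brackets, counts in the bars). The 10 members have 4, 3 and 3, close to the division of all 20136 protein-coding genes.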

How the data were processed

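The interaction lists that the authors deposited, 1 for each of 3 biological replicates of hESC-CMs and 1 for the replicates merged, were taken without change. The authors mapped reads to GRCh37 with HiCUP and computed each score with CHiCAGO. The deposited scores carry 2 decimals and start at 5. No read was mapped again and no read count was used, so depth per replicate is unknown.

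Genes were placed on HindIII fragments with GENCODE 44 lifted to GRCh37. An interaction was an unordered pair of fragments, and results rest on every pair called in at least 1 replicate, the merged calls left aside. Fragments of one promoter were put in one stretch where gaps were at most 20 kb. Distances were taken between fragment midpoints. A mean score is over the replicates with a call. Only the share of member interactions called in all 3 replicates carries a 95% Wilson interval (scipy 1.17.1). Sequences were read with pysam 0.24.0 (Python 3.11.15), and plots were made with matplotlib 3.10.9. The counting step was tested on simulated data.

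Like the genes, the 60 pathway genes and the summaries were chosen with those results in view. Named in the text are the 5 highest recurrent interactions of each promoter fragment, contacts between promoter fragments called in all 3 replicates, and, for each pathway list, the 2 highest and the lowest genes, except items that are not reported here. Other contacts and genes were named after their values were seen. Alternatives were score minimums of 7 and 10, leaving out each replicate, partners matched within 5 kb, distances of at most 1 Mb, protein-coding transcript starts only, and the merged calls.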

Additional observations from a re-analysis of the deposited data

Results flagged for a closer look

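The calls that the authors made on the merged replicates held 4 interactions of these promoters that no single replicate listed. The merged file served only as an alternative, so these pairs stood outside the results above, and their scores have no replicate error. The *PPARGC1A* bait had a merged score of 6.94 with chr4:24427541-24431095, the fragment that follows the stretch it contacted in the replicates. The *PPARGC1B* promoter scored 5.39 with the *HMGXB3* and *TIGD6* promoter fragment (chr5:149376555-149381828), 268 kb away. The second *ESRRA* promoter fragment scored 5.06 with chr11:64538325-64543053, which the first one contacted in replicate 2. An *ESRRG* start fragment (chr1:217305462-217317614) scored 5.1 with chr1:216920440-216921455 in its own intron, and was the only *ESRRG* start in any deposited call.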

How the results depend on the processing

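Each alternative was run on the values that it bears on. The 44 interactions became 12 at a score minimum of 7 and 4 at 10. The recurrent ones, 11, became 5 and 1, and 22 when partners within 5 kb counted as the same. Their share, 25.0%, became 41.7% at a minimum of 7 and 50% within 5 kb, where the share over all interactions was 27.2% and 47.8%. It ran from 34.3% to 41.7% when 1 replicate was left out, which asks for a call in the 2 remaining, against 36.9% to 37.5% over all. Over at most 1 Mb it was 26.2%, against 34.0%. With protein-coding transcript starts only, 37 interactions, 10 of them recurrent, and 3 genes were left, and *PPARGC1A* had no bait. The recurrent interactions had a median distance of 97.7 kb. The merged calls gave 255 kb, but over all of their member interactions. The like value over the 44 interactions was also 255 kb. Genes with a recurrent interaction, 4, became 1 at a minimum of 10 and 7 in the merged calls, which have no recurrence, and pathway genes, 21, became 4 and 38. Leaving out replicate 1, 2 or 3 gave 4, 6 and 5 genes with an interaction called in both remaining replicates. Own-gene contacts became 0 at 10. In all, 34 summary values stayed within their limits and 14 moved, where a change from 4 to 6 genes counted as within. Of 16 top scores, 15 stayed within 1 SD. Those with 1 replicate left out could not move farther than that, so only the merged scores could. The exception was *PPARGC1A*, at 12.77 in the merged calls. No paired analysis was possible because there is 1 group. Fragments shared by several genes, start fragments not listed as baits, and unknown depth limit what an uncalled pair shows.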
